A study of Mus musculus with 9 samples.

Results

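RNA of fluorescently sorted tumour cells was compared between 2 liver metastases and 2 primary tumours of a mouse model of pancreatic ductal adenocarcinoma (PDAC), which are 4 of the 9 libraries of the study and were chosen by their labels alone. The other 5 libraries are 1 PDAC lung metastasis and 4 libraries of a breast cancer (BC) model, GFP-sorted cells derived from 4T1-eGFP (a mouse mammary carcinoma line that carries a green label) at 28 days, with 2 primary tumours and 2 lung metastases. All PDAC libraries held YFP-sorted cells from mice with p48-Cre, p53F/+ and ROSA-LSL-YFP among their alleles. The mouse numbered 1 also carried SIRT6F/F and was 25.67 weeks old, and the mouse numbered 5 had no SIRT6 allele in its label and was 28.95 weeks old. Each number labels 1 primary tumour and 1 liver metastasis, called here primary 1, primary 5, liver metastasis 1 and liver metastasis 5. Libraries of the same number were taken to come from the same mouse, by their shared labels. The values do not show this pairing, as given under the processing below. The SIRT6 label, the age and the animal therefore go together and cannot be told apart, and n is 2 against 2.

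In this kind of model Cre is made in the developing pancreas, where it recombines the engineered alleles, p53 among them, and turns on the YFP reporter, so that the descendants of those cells stay labelled when they leave the pancreas. The liver is the most frequent site of spread of pancreatic cancer. Its hepatocytes make most proteins of the blood plasma, its resident macrophages (Kupffer cells) and sinusoidal endothelium line its blood channels, and tumours at both sites attract blood-borne myeloid cells and lymphocytes.

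The libraries differed in what they detected before any comparison of sites. Genes above 0 numbered 15907 in primary 1, 10410 in primary 5, 12144 in liver metastasis 1 and 18717 in liver metastasis 5, over an estimated 28100000 to 65300000 reads on genes. Haemoglobin genes took 10.9% of the summed level in primary 1, 0.0582% in primary 5, 38.9% in liver metastasis 1 and 20.1% in liver metastasis 5. Values are RPKM, a read count divided by gene length and by library size, and pairs of values are given in the order number 1, number 5. Where one pair is set against another, the primaries come first. Sdha, a subunit of respiratory complex II that most cells need, was at 56.3 and 0.0247 RPKM in primaries 1 and 5, and the general transcription factor gene Tbp at 3.05 and 0.138 RPKM, so values near 0 in primary 5 include genes that a cell should not lack. The 2 primaries had a correlation of log2 levels across genes of 0.552, and the 2 liver metastases one of 0.749, as a description over genes of single libraries. Primary 1 had 0.77 with liver metastasis 1 and 0.816 with liver metastasis 5, both above the value between the liver metastases. Primary 5 had 0.589 and 0.508 with them, so the lowest correlations among these 4 libraries were those of primary 5.

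The epithelial tumour label was checked against markers. Keratin 18, an intermediate filament of simple epithelia, was measured in all 4 libraries, with Krt18 at 1387 and 8157 RPKM in primaries 1 and 5 and 4064 and 124 RPKM in the liver metastases. Epcam, an epithelial adhesion molecule, was at 52.9 and 1154 RPKM in primaries 1 and 5 and at 25.1 and 20.1 RPKM in liver metastases 1 and 5. The 26 epithelial genes listed took 0.452% and 4.26% of the summed level of the primaries and 0.775% and 0.0473% of that of the liver metastases. The summed epithelial share was thus highest in primary 5 and lowest in liver metastasis 5. Single members were often missing. Of the 26 genes, 5 and 4 were listed at 0 in primaries 1 and 5, and 6 and 0 in liver metastases 1 and 5. In liver metastasis 5 neutrophil genes took 24.2% and red cell genes 20.4% of the summed level. The part of tumour cells in each library was not tested. Of the engineered loci, Trp53 was at 17.5 and 1.4 against 3.18 and 7.2 RPKM. Sirt6 was at 3.49 and 0 against 2.91 and 2.23 RPKM; the libraries labelled SIRT6F/F were not the lower ones. Values of whole genes do not show a deleted exon or a mutant allele, so they do not check these labels.

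Each liver metastasis was first set against each primary tumour, on log2(RPKM + 1), for 12832 genes, those that reached 1 RPKM in 2 or more of all 9 libraries. In the mouse numbered 1, 2072 genes were at least 2-fold higher in the liver metastasis than in its primary (16.1% of those tested) and 3802 were at least 2-fold lower (29.6%). In the mouse numbered 5, 5800 were higher (45.2%) and 2698 lower (21%). Across mice, liver metastasis 1 was at least 2-fold above primary 5 for 4076 genes (31.8%) and below it for 2731 (21.3%), and liver metastasis 5 was above primary 1 for 2364 (18.4%) and below it for 2262 (17.6%). For liver metastasis 1 the balance of higher and lower genes therefore turned with the primary that was used, while for liver metastasis 5 more genes were higher than lower against both primaries, as the plot of counts by pair shows.

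**Figure D1:**
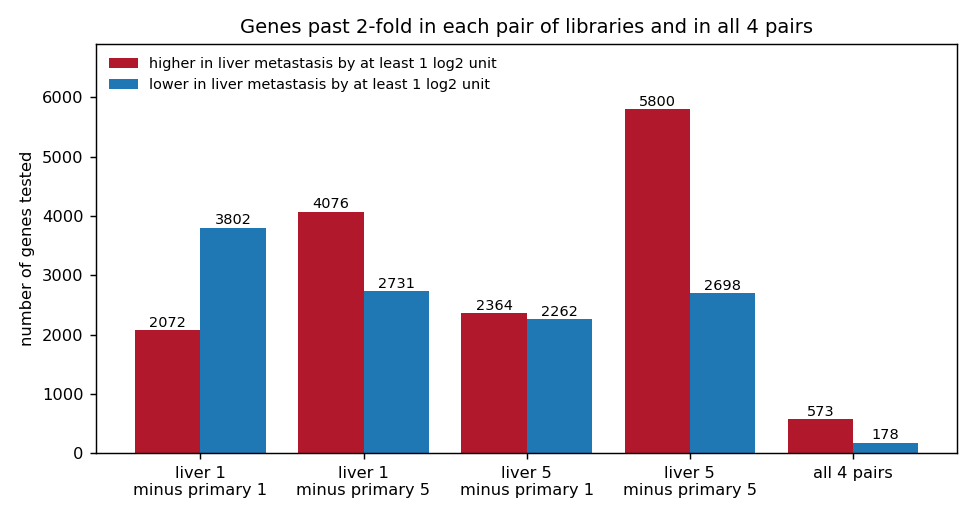
Number of genes tested (vertical axis) at least 1 log2 unit higher (red) or lower (blue) in a liver metastasis, for each of the 4 pairs of libraries and for all 4 pairs together (horizontal axis). Higher genes range from 2072 to 5800 in single pairs, and 573 higher and 178 lower genes pass in all 4 pairs.

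The primaries themselves were at least 2-fold apart for 7929 genes (61.8%) and the liver metastases for 6801 (53%). The 2 mice also differed in opposite directions. For 2217 genes (17.3%) the liver metastasis was at least 2-fold lower than the primary in the mouse numbered 1 and at least 2-fold higher in the mouse numbered 5, and for 553 (4.31%) the reverse held. The liver metastasis was higher in both mice for 973 genes (7.58%) and lower in both for 583 (4.54%). In all 4 pairs, 573 genes (4.47%) were at least 2-fold higher and 178 (1.39%) at least 2-fold lower in the liver metastases, and 174 (1.36%) and 15 (0.117%) passed at 4-fold. The counts of list members below stand beside these shares of 4.47% and 1.39%. The groups did not overlap, at any distance, for 1982 higher (15.4%) and 1313 lower genes (10.2%). When the libraries were rescaled without haemoglobin, 388 were higher and 399 lower, so the excess of higher genes depended on the scaling. Leaving out primary 1 gave 3248 higher and 1865 lower, leaving out liver metastasis 1 gave 1762 and 745, and leaving out liver metastasis 5 gave 1360 and 1089; without primary 5 they were 794 and 1087. Of the 573 higher genes, 311 were listed at 0 in primary 5 and 125 in primary 1, and of the 178 lower genes 69 were listed at 0 in liver metastasis 1 and 7 in liver metastasis 5. The filter on low values also bears on these counts: 124 of the 12832 genes reached 1 RPKM in the 2 liver metastases and in no other library, and such a gene, admitted by its high group, is nearly bound to be higher there. Of these 124 genes 107 were past 2-fold in all 4 pairs, and of the other 12708 genes 466 were.

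The gene that rose beyond the spread between libraries was Apoa2, an apolipoprotein of high-density lipoprotein that hepatocytes secrete. Apoa2 was at 0.0791 and 0.0594 RPKM in primaries 1 and 5 and at 424 and 517 RPKM in liver metastases 1 and 5, which differ by 8.78 ± 0.97 on the log2 scale (SE; 2 libraries against 2), and it was the only gene that passed limma at an adjusted p under 0.05 (adjusted p = 0.0425; 0.00779% of 12832 genes). Its 2 liver libraries were close to each other and far from both primaries. Apoa2 reached 1 RPKM in those 2 libraries alone and so entered the test through the group where it was high; with no filter on low values 0 genes passed, and its adjusted p was 0.141. With the mouse number as a block its adjusted p was 0.115, and over 18 alternatives it ranged from 0.00374 to 0.404. At an unadjusted p under 0.05 limma gave 821 genes (6.4%), 628 higher (4.89%) and 193 lower (1.5%). Rescaled without haemoglobin these were 418 and 327, and without primary 5 they were 321 and 360. Leaving out primary 1 gave 1032 genes past the adjusted threshold (766 higher, 266 lower), and 0 genes passed without primary 5 or without any single BC library. Without liver metastasis 1 or 5 also 0 passed, but there Apoa2 is removed by the filter and was not tested. The median log2 difference over all genes was 0.08, and it was -0.11, -0.13 and 0.22 with quantile scaling, without haemoglobin and centred on genes present in every library. In bulk samples like these, fewer cells of a type and less RNA per cell cannot be told apart.

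**Figure D2:**
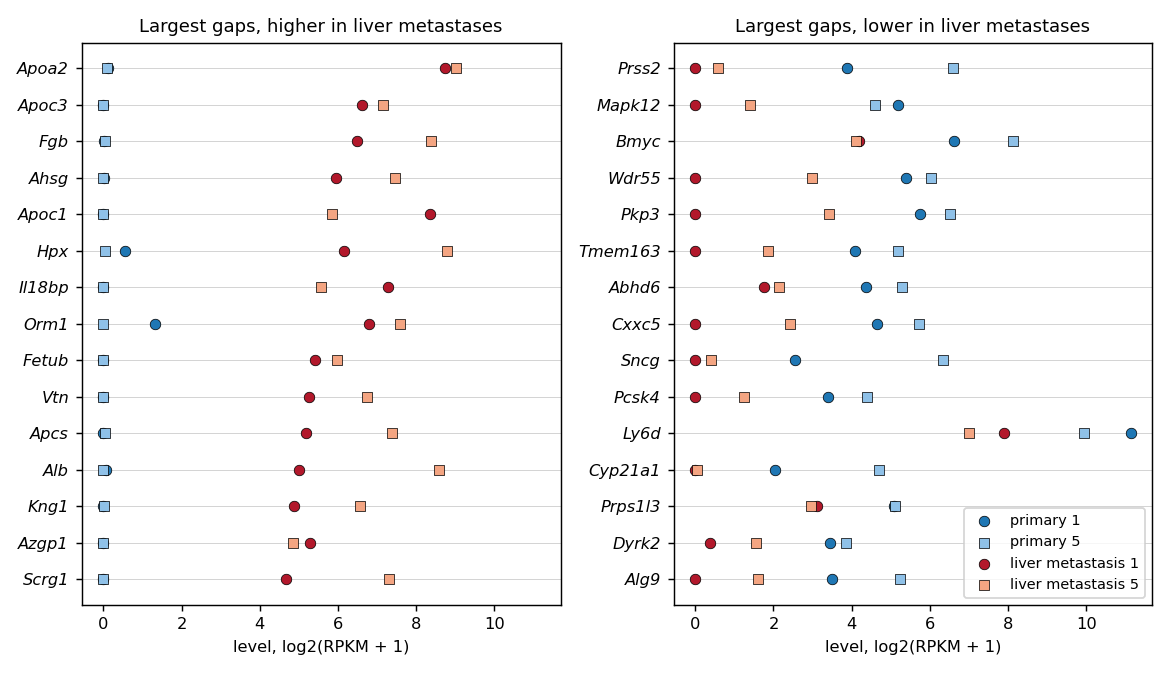
Level of the 15 genes per direction with the largest gap between the groups, predicted loci passed over, as log2(RPKM + 1) (horizontal axis). Libraries are primary 1 (dark blue circles), primary 5 (light blue squares), liver metastasis 1 (dark red circles) and liver metastasis 5 (light red squares). The higher genes are at or under 1.48 RPKM in both primaries, while 10 of the 15 lower genes are listed at 0 in liver metastasis 1.

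Genes of proteins that hepatocytes release into the blood stood far above their values in the primaries. Of 26 such genes, 24 were tested and 21 were at least 2-fold higher in all 4 pairs, beside 4.47% of all genes tested; none was lower. Of the 24, 13 reached 1 RPKM in the 2 liver metastases alone, so that the filter admitted them by their high group, and all 13 were among the 21. Of the other 11 genes 8 were past 2-fold. The median differences of the 24 were 4.04, 4.36, 5.25 and 5.56 in the pairs liver 1 and primary 1, liver 1 and primary 5, liver 5 and primary 1, and liver 5 and primary 5, beside -0.14, 0.01, -0.02 and 0.72 for all genes. Among the 15 higher genes with the largest gap, 13 were liver genes of the lists used here. Those 15 were ranked with predicted loci passed over and a higher-group average of at least 5 RPKM. Apart from Apoa2 no member of any list passed limma over all genes. Genes of Kupffer cells and of sinusoidal endothelium, given below, differed in the same libraries, and the part of normal liver cells in the sorted material was not tested.

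Several carriers of the plasma, but not all, were low in the primaries and spread widely between the liver metastases. Albumin, the main plasma protein, had Alb at 0.0416 and 0 RPKM in primaries 1 and 5 and at 30.8 and 381 RPKM in liver metastases 1 and 5 (6.75 ± 1.16; limma adjusted p = 0.0722). Hpx, the haem scavenger hemopexin, was at 0.46 and 0.0216 against 70.3 and 443 RPKM (7.19 ± 1.12; adjusted p = 0.0563), and Ahsg, the mineral-binding fetuin-A, was at 0.0144 and 0 against 60.3 and 176 RPKM (6.69 ± 0.91; adjusted p = 0.0563). All 3 were higher in liver metastasis 5 than in liver metastasis 1, by 1.53 to 3.58 log2 units, and neither group overlapped the other. Trf, the iron carrier transferrin, differed less, at 19 and 23.5 against 131 and 71 RPKM (2.14 ± 1.02). Hp, the haemoglobin-binding haptoglobin, was the highest of the list in the liver, at 197 and 0.38 against 1181 and 3505 RPKM. Hp was also high in primary 1 and in the PDAC lung metastasis, where Alb was near or at 0, so its level did not follow that of Alb. Gc, the vitamin D binding protein, was at 19.5 and 49.1 against 137 and 156 RPKM. Ttr and Ambp are also made outside hepatocytes: Ttr, transthyretin, was at 0.279 and 2.7 against 10.2 and 76.9 RPKM, and Ambp was at 11.5 and 170.1 against 32.2 and 88.3 RPKM, so that its groups overlapped. Fetub, Vtn and Azgp1 were listed at 0 in primaries 1 and 5. Their liver values were 41.6 and 62 RPKM for Fetub, 37.3 and 107 RPKM for Vtn and 38.2 and 27.6 RPKM for Azgp1 (adjusted p = 0.0563 for each). Levels of Serpina3k, 19.8 and 667 RPKM in the liver metastases against 0.0257 and 0.0386 RPKM, are uncertain because the gene has near-identical neighbours.

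The clotting genes followed the same split of groups. All 3 fibrinogen chains, which polymerize into the clot, were near 0 in both primaries. Fgb was at 0.0129 and 0.0194 RPKM in primaries 1 and 5 and at 88.7 and 335 RPKM in liver metastases 1 and 5 (7.42 ± 0.98; adjusted p = 0.0563), Fga was at 0.0145 and 0 against 6.92 and 125 RPKM, and Fgg was at 0.0108 and 0.0488 against 20.8 and 197 RPKM. Every chain was lower in liver metastasis 1 than in liver metastasis 5, but far above both primaries. F2, prothrombin, was at 0.00462 and 0 against 5.34 and 25.4 RPKM, and its inhibitor antithrombin (Serpinc1) was at 1.88 and 0.074 against 30.2 and 46.1 RPKM. Kng1, the kininogen of the contact pathway, was at 0 and 0.0101 against 28.5 and 94.4 RPKM (5.72 ± 0.87; adjusted p = 0.0563). Plasminogen, which dissolves the clot, had Plg listed at 0 in both primaries and liver metastasis 1 and at 9.94 RPKM in liver metastasis 5, and it did not pass the filter on low values.

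Sequences upstream of 3 of these genes are shown because they hold the letters of a known motif of liver promoters. The letters GTTAATNAT were searched on both strands of the 250 bases before each start in RefSeq (GRCm38.p6). Of the 28 hepatocyte plasma protein and apolipoprotein genes at least 2-fold higher in all 4 pairs, 21 had a window and 3 held the letters (14.3%). Beside them stand 234 of all 27025 genes with a window (0.866%) and 38 of the 8392 tested genes with a window (0.453%). The letters CAAAGTCCA, a form of the HNF4 site, were in 0 of the 21 and in 122 of all genes with a window (0.451%). A match of letters is a description and not a measured site, and the 21 genes were chosen by their values here. The 3 matches, 5′ to 3′ on the strand of the gene with the matching letters in capitals, begin 32, 46 and 52 bases before the start for the matching letters of Alb (chr5:90460818-90460866, plus strand), Fga (chr3:83026087-83026135, plus strand, letters read on the other strand) and Gc (chr5:89457922-89457970, minus strand).
Alb: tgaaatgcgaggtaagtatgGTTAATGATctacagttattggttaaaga
Fga: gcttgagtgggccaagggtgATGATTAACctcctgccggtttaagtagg
Gc: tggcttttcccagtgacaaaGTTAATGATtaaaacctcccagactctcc

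Apolipoproteins, which carry lipid in plasma, had 7 of 12 tested members at least 2-fold higher in all 4 pairs and none lower. This is 58.3%, beside 4.47% of all genes tested, and 4 of the 7 reached 1 RPKM in the 2 liver metastases alone. Apoc3, an inhibitor of lipoprotein lipase, was listed at 0 in primaries 1 and 5 but at 97.9 and 142 RPKM in liver metastases 1 and 5 (adjusted p = 0.0563). Apoc1 was listed at 0 in primaries 1 and 5 but at 328 and 56.5 RPKM in liver metastases 1 and 5, so it was higher in liver metastasis 1, in contrast to Apoc3. Apoe, which macrophages also make, was the highest of the list, at 911 and 130.4 RPKM in primaries 1 and 5 and at 5565 and 1633 RPKM in liver metastases 1 and 5. Its groups did not overlap, but liver metastasis 5 was above primary 1 by less than 2-fold. Apoa1, the main protein of high-density lipoprotein, was at 1.48 and 245 against 206 and 654 RPKM, where primary 5 exceeded liver metastasis 1. Apoa4 overlapped in the same way, at 0 and 70.9 against 18.3 and 149 RPKM. Apoc4 was at 6.18 and 0 against 87.8 and 48.2 RPKM and the phospholipid transfer protein gene Pltp was at 10 and 0.0249 against 65.1 and 25.5 RPKM. Apob, the scaffold of very low density lipoprotein, did not pass the filter and was at 0.357 and 0.0868 RPKM in the liver metastases.

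Enzymes of hepatocytes were far lower than the plasma proteins and were split differently between the liver metastases. Of 28 enzymes 18 were tested, and 10 were at least 2-fold higher in all 4 pairs (55.6%, beside 4.47% of all genes tested). Of these 10, 7 reached 1 RPKM in the 2 liver metastases alone. The median differences were 3.67, 3.24, 1.85 and 1.97 in the same order of pairs. Fbp1 of gluconeogenesis was at 4.41 and 0 RPKM in primaries 1 and 5 and at 85.1 and 34.5 RPKM in liver metastases 1 and 5, and Gnmt, a glycine methyltransferase, was at 2.1 and 0 against 50.6 and 16.7 RPKM. Both were higher in liver metastasis 1. Adh1, alcohol dehydrogenase, was at 1.24 and 0 against 74.3 and 3.24 RPKM, and Tat, tyrosine aminotransferase, was listed at 0 in primaries 1 and 5 but at 26.6 and 3.77 RPKM in liver metastases 1 and 5. Arg1, arginase of the urea cycle that myeloid cells also make, was the highest enzyme and overlapped, at 152 and 117 against 294 and 151 RPKM. Fabp1, a fatty acid carrier shared with gut epithelium, was at 0 and 219 against 27.9 and 6.51 RPKM, with primary 5 above the rest. Of the 28 enzymes, 21 and 20 were listed at 0 in primaries 1 and 5, and 6 and 1 in liver metastases 1 and 5. Cps1, the entry enzyme of the urea cycle, was listed at 0 in primaries 1 and 5 but at 7.15 and 0.0643 RPKM in liver metastases 1 and 5. Otc and Cyp7a1 were at 0 in liver metastasis 1 and at 0.0324 and 0.0724 RPKM in liver metastasis 5, and G6pc was listed at 0 in all 4.

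The 2 liver metastases were compared directly for these genes, as a description of single libraries. Liver metastasis 5 had the higher value for 21 of 24 plasma protein genes (median difference from liver metastasis 1 of 1.46), and liver metastasis 1 had the higher value for 17 of 18 enzymes (median -1.43). The median over all genes tested was 0.33. Apolipoproteins were divided, 5 higher in liver metastasis 5 and 7 in liver metastasis 1. The plot of one liver metastasis against the other places plasma proteins above the diagonal and enzymes below it.

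**Figure D3:**
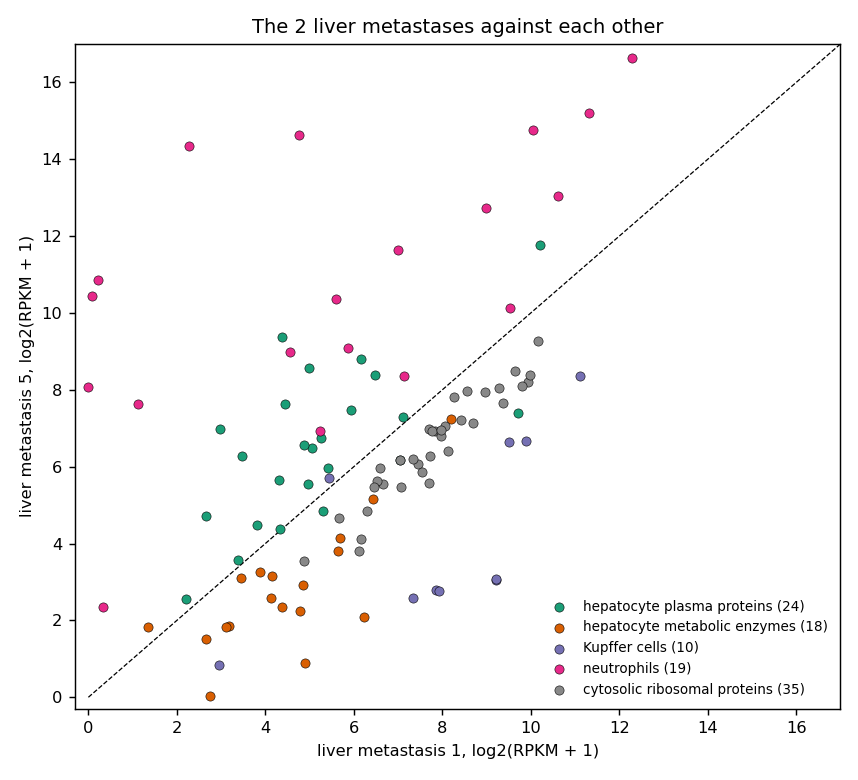
Level of each tested member of 5 lists in liver metastasis 1 (horizontal axis) and liver metastasis 5 (vertical axis), as log2(RPKM + 1), with 1 point per gene and a dashed line of equal level. Neutrophil genes lie above the line for 19 of 19 members, and 17 of 18 hepatocyte enzymes, 9 of 10 Kupffer cell genes and 35 of 35 ribosomal protein genes lie below it.

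Transcription factors and transporters of hepatocytes were scarce. Hnf4a, a master regulator of hepatocytes that is also used in gut-type epithelium, was at 0.0508 and 13.9 RPKM in primaries 1 and 5 and at 0 and 0.11 RPKM in liver metastases 1 and 5, so its highest value was in primary 5. Cebpa, which myeloid cells also use, was at 2.04 and 0 against 3.87 and 9.61 RPKM, and Nr0b2, a corepressor induced by bile acid signalling, was at 1.97 and 0 against 24 and 1.65 RPKM. Of 11 factors 3 passed the filter on low values and 0 were past 2-fold in all 4 pairs. Of 11 surface and transport genes 2 passed the filter: Asgr1, the asialoglycoprotein receptor, was listed at 0 in primaries 1 and 5 but at 4.62 and 10.5 RPKM in liver metastases 1 and 5, and Abcb4, a bile phospholipid pump, overlapped, at 1.18 and 0 against 5.02 and 1.17 RPKM. Slc10a1, the bile acid importer, was listed at 0 in primaries 1 and 5 and liver metastasis 1 and was at 2.47 RPKM in liver metastasis 5. Hepatic stellate cell genes gave no separated member, with 2 of 10 tested.

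Acute phase and complement proteins, which the liver releases in inflammation, had 7 of 12 tested members at least 2-fold higher in all 4 pairs. Of these 7, 1 reached 1 RPKM in the 2 liver metastases alone. Orm1, an acute phase glycoprotein, was at 1.48 and 0 RPKM in primaries 1 and 5 and at 109 and 191 RPKM in liver metastases 1 and 5 (6.53 ± 1.05; adjusted p = 0.0563), and Apcs, serum amyloid P, was at 0 and 0.0325 against 35 and 165 RPKM. Saa1 and Saa2, near-identical serum amyloid genes whose reads may be shared, were at 0.421 and 0.158 against 2.1 and 170.4 RPKM, and at 0.0348 and 0 against 10.1 and 95 RPKM. Saa3, which macrophages and epithelia also make, was high already in the primaries, at 529 and 326 against 2439.8 and 1845 RPKM (2.35 ± 0.59; adjusted p = 0.338). C3, the central complement factor, was at 3.4 and 3.87 against 21.7 and 20.6 RPKM, with little difference within either group. The terminal complement genes C8a and C9 were listed at 0 in 3 libraries and were at 0.567 and 1.16 RPKM in liver metastasis 5. Lcn2 was at 44.6 and 340.0 against 128 and 3182 RPKM, where primary 5 exceeded liver metastasis 1.

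Genes of Kupffer cells were high in liver metastasis 1. Clec4f, a lectin that marks mouse Kupffer cells, was at 0 and 0.0388 RPKM in primaries 1 and 5 and at 597 and 7.25 RPKM in liver metastases 1 and 5. Cd5l and Folr2 were listed at 0 in primaries 1 and 5, and their liver values were 243 and 5.84 RPKM for Cd5l and 160.4 and 4.99 RPKM for Folr2. Marco, a scavenger receptor, was at 6.11 and 0.0161 against 589.5 and 7.48 RPKM, and Vsig4 was at 7.76 and 0 against 229 and 5.96 RPKM. Liver metastasis 5 was thus above both primaries for Clec4f, Cd5l and Folr2 and close to primary 1 for Marco and Vsig4. The C1q genes, shared by tissue macrophages, behaved like Marco, with C1qb at 182 and 87.2 against 2222 and 330.3 RPKM. Slc40a1, the iron exporter ferroportin, was level between the liver metastases, at 1.53 and 5.19 against 42.7 and 51.2 RPKM (3.59 ± 1.14; adjusted p = 0.514). Of 10 tested members 4 were past 2-fold in all 4 pairs (40%, beside 4.47% of all genes tested). Of these 4, 1 reached 1 RPKM in the 2 liver metastases alone. The medians were 4.41, 7.89, 0.85 and 2.90 in the order of pairs given above. The list took 0.0688% and 0.0195% of the summed level in the primaries and 0.629% and 0.0621% in the liver metastases.

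Endothelial genes showed the same liver library. Clec4g, a lectin of sinusoidal endothelium, was at 0.00863 and 0 RPKM in primaries 1 and 5 and at 96.2 and 3.17 RPKM in liver metastases 1 and 5, and Gpr182 was at 0.00537 and 0 against 19.7 and 0.716 RPKM. Plvap, a protein of endothelial fenestrae, was at 1.56 and 0.0158 against 54.3 and 3.12 RPKM, and Egfl7 was at 0.925 and 0.00891 against 29.5 and 4.38 RPKM. Of 7 tested sinusoidal genes 2 and of 10 general endothelial genes 2 were past 2-fold in all 4 pairs (Clec4g and Clec1b, Egfl7 and Esam), and liver metastasis 1 was the higher of the liver libraries for 6 of 7 and 8 of 10. General vascular genes differed from each other. Pecam1 was at 0.121 and 2.56 RPKM and Cdh5 at 0.45 and 0.0207 RPKM in the liver metastases. Tie1 was at 0.0432 and 0 against 7.68 and 0.358 RPKM, and Eng at 0.692 and 0.00825 against 8.48 and 1.19 RPKM. Tek was listed at 0 in primaries 1 and 5 and was at 6.52 and 0 RPKM in the liver metastases. Liver metastasis 1 was at least 2-fold above primary 1 for 7 of the 10 genes and below it for 1. Liver metastasis 5 was at least 2-fold above primary 1 for 2 and below it for 0.

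**Figure D4:**
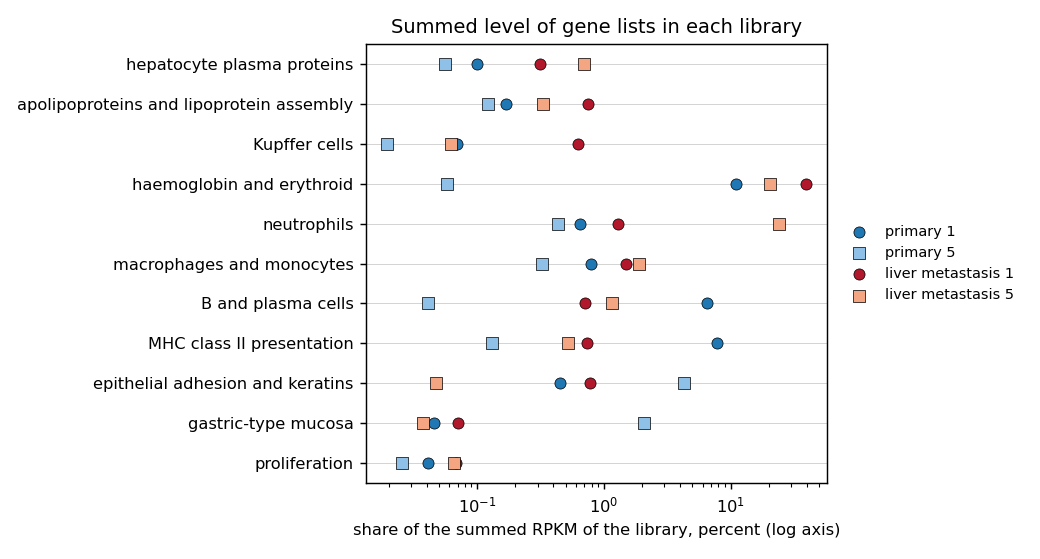
Share of the summed RPKM of each library taken by 11 gene lists (horizontal log axis, percent), in primary 1 (dark blue circles), primary 5 (light blue squares), liver metastasis 1 (dark red circles) and liver metastasis 5 (light red squares). Haemoglobin and erythroid genes are lowest in primary 5, neutrophil genes reach 24.2% in liver metastasis 5, and epithelial genes are highest in primary 5.

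Red cell genes took the largest share of the summed level among the lists used in liver metastasis 1, and neutrophil genes followed by red cell genes in liver metastasis 5. Red cell genes had 9 of 12 tested members past 2-fold in all 4 pairs. Of these 9, 1 reached 1 RPKM in the 2 liver metastases alone. The haem synthesis gene Alas2 was at 627 and 0.173 RPKM in primaries 1 and 5 and at 2377 and 2184 RPKM in liver metastases 1 and 5, and the globin gene Hbb-b1, whose reads may be shared with its near-identical copies, was at 26378 and 136 against 160670.5 and 111689 RPKM. Primary 5 was the lowest library for both, while primary 1 was intermediate. Nuclear red cell factors did not share this pattern, with Gata1 at 2.44 and 0 against 0 and 3.95 RPKM and Klf1 at 0 and 4.91 RPKM in the liver metastases. Pf4, platelet factor 4, was at 47 and 0.0545 against 442 and 377 RPKM (5.85 ± 1.46; adjusted p = 0.338), and 4 of 6 platelet genes were past 2-fold. The part of blood carried along in the sort in these values was not tested.

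Neutrophil genes were highest in liver metastasis 5. S100a8, a calcium-binding protein of neutrophils, was at 609 and 9.28 RPKM in primaries 1 and 5 and at 5035 and 101301 RPKM in liver metastases 1 and 5, and Retnlg was at 152 and 1.21 against 1064 and 27829.7 RPKM. Ly6g, a surface marker of mouse neutrophils, was at 0.0632 and 0.095 against 22.6 and 503 RPKM (6.66 ± 1.62; adjusted p = 0.322). All 19 genes were higher in liver metastasis 5 than in liver metastasis 1. Of the 19, 10 were past 2-fold in all 4 pairs (52.6%, beside 4.47% of all genes tested). Granule genes of immature neutrophils separated the liver libraries further. Camp, a secondary granule peptide, was at 52.4 and 0.797 against 3.85 and 20982 RPKM, Ngp was at 104 and 1.31 against 26.2 and 25527 RPKM, and the primary granule protease gene Elane was at 23.5 and 0.0694 against 0.0629 and 1381 RPKM. For these 3 liver metastasis 1 was below primary 1, so the comparison with the primaries turned with the liver library. The list took 0.652% and 0.434% of the summed level in the primaries and 1.3% and 24.2% in the liver metastases.

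Macrophage and monocyte genes were mostly higher in both liver metastases. Of 18 genes 9 were past 2-fold in all 4 pairs (50%, beside 4.47% of all genes tested), with medians of 1.70, 3.31, 1.36 and 3.36. Lyz2, lysozyme, was at 1469 and 498 RPKM in primaries 1 and 5 and at 4925 and 4309 RPKM in liver metastases 1 and 5 (2.43 ± 0.58; adjusted p = 0.304), Tyrobp, a myeloid signalling adaptor, was at 474 and 139 against 1825 and 4334 RPKM, and Cd14, the endotoxin co-receptor, was at 929 and 417 against 3228 and 6182 RPKM. The receptor gene Csf1r was at 3.63 and 0 against 24.4 and 16.4 RPKM. Monocyte and tissue macrophage genes differed by liver library: Ly6c2 was at 18.9 and 0.642 against 59.5 and 724 RPKM, and Gpnmb was at 3.27 and 0.00692 against 58.3 and 4.11 RPKM. Every macrophage gene but 1 was at least 2-fold higher in primary 1 than in primary 5. Their share of the summed level was 0.796% and 0.325% in the primaries against 1.5% and 1.89% in the liver metastases.

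Lymphocyte genes placed both liver metastases between the primaries. Cd79a, a subunit of the B cell receptor, was at 1719 and 0.11 RPKM in primaries 1 and 5 and at 21.2 and 77.3 RPKM in liver metastases 1 and 5. The antibody light chain gene Igkc was at 27937 and 1.88 against 5641 and 9319.6 RPKM. Of 13 B and plasma cell genes 7 were at least 2-fold below primary 1 and at least 2-fold above primary 5 in both liver metastases, a pattern found for 246 of all genes (1.92%). The medians were -4.19, 4.32, -2.09 and 6.14, with opposite signs against the 2 primaries. Genes of MHC class II, which present antigen to helper T cells, did the same for 7 of 9, with Cd74 at 26231 and 290.2 against 3453 and 2953 RPKM and H2-Ab1 at 9500.0 and 243 against 1796 and 1277 RPKM. No B cell or class II gene was past 2-fold in all 4 pairs in one direction. The sign of the fitted median of either list changed with the scaling.

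T cell receptor genes were not separated either, with Cd3e at 29.9 and 0 RPKM in primaries 1 and 5 and at 9.19 and 14.8 RPKM in liver metastases 1 and 5 and Trac at 120.0 and 0 against 13.7 and 37.3 RPKM. The cytotoxic granule proteases differed from them. Gzma was at 3.62 and 0 against 27.7 and 62.7 RPKM (4.31 ± 1.24; adjusted p = 0.43) and Gzmb was at 3.34 and 0 against 34 and 27.6 RPKM, the 2 of 14 T and NK cell genes that were past 2-fold in all 4 pairs. Nkg7, another protein of cytotoxic granules, overlapped, at 48.4 and 0 against 42.3 and 202 RPKM. Perforin was at 0 in liver metastasis 1, with Prf1 at 3.98 and 0 against 0 and 3.32 RPKM.

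Inflammatory signals were mixed. Among interferon-responsive genes, Rsad2, an antiviral enzyme, was at 11.3 and 0 RPKM in primaries 1 and 5 and at 107 and 130.3 RPKM in liver metastases 1 and 5 and Ifitm3 was at 152 and 173 against 820.0 and 745 RPKM (2.26 ± 0.49; adjusted p = 0.222). The chemokine gene Cxcl10 was at 0.489 and 0 against 19 and 7.41 RPKM. In contrast Ifit1 was at 1.95 and 0 against 0.0218 and 0.569 RPKM. Of 14 such genes 4 were past 2-fold higher in all 4 pairs. Of 20 chemokine and cytokine genes 6 were (Ccl4, Ccl5, Ccl6, Il1b, Tnf and Csf1). Tnf was at 8.84 and 0.117 against 64.7 and 47.3 RPKM and Ccl5 was at 7.33 and 0 against 54.8 and 75.3 RPKM. Cxcl2, a neutrophil attractant, was at 597 and 30.9 against 1063 and 1754 RPKM, separated but by less than 2-fold from primary 1. Cxcl1 and Csf2 overlapped, Cxcl1 at 45.6 and 253 against 261 and 24.4 RPKM and Csf2 at 0 and 43.1 against 22.4 and 0.722 RPKM.

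**Figure D5:**
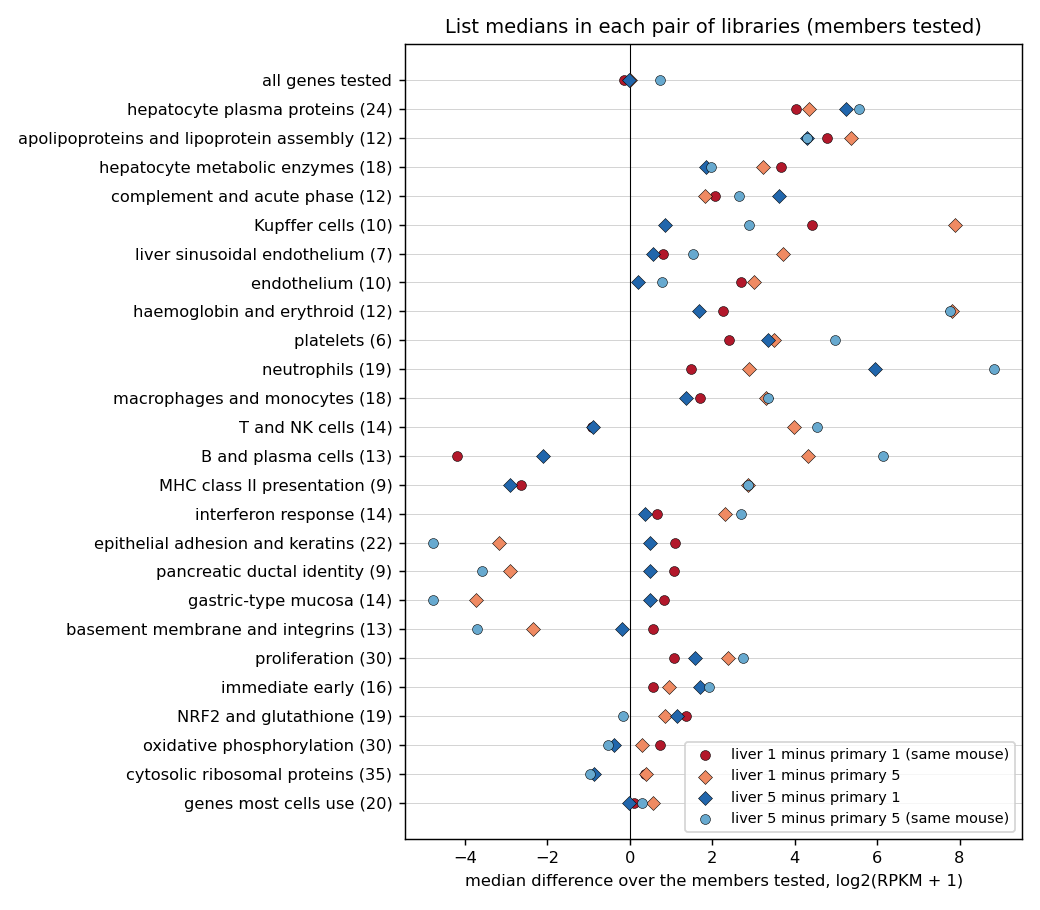
Median log2(RPKM + 1) difference over the tested members of 25 lists (rows, with the number of members tested) in each of the 4 pairs of a liver metastasis and a primary (colours). Circles join libraries of the same number, taken as the same mouse. Liver and myeloid lists are positive in all 4 pairs, while B cell, MHC class II and epithelial lists change sign with the primary.

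The tumour epithelium was compared next, and the median difference of its genes changed sign with the primary. Krt19, a keratin of ducts, was at 214 and 2176 RPKM in primaries 1 and 5 and at 603 and 27.4 RPKM in liver metastases 1 and 5, and Krt8 was at 415 and 1849 against 1476 and 37.5 RPKM. Cdh1, E-cadherin of cell junctions, was at 0.409 and 109 against 13.1 and 1.92 RPKM, and Cldn4, a tight junction claudin, was at 5.92 and 1722 against 82.7 and 18 RPKM. Liver metastasis 1 was above its own primary for all 4 and liver metastasis 5 was below its own primary. Liver metastasis 5 was also below primary 1 for Krt19 and Krt8 but above it for Cdh1 and Cldn4. Over the list it was at least 2-fold above primary 1 for 8 genes and below it for 8. Over 22 genes the medians were 1.09, -3.18, 0.49 and -4.77. Of them, 5 were at least 2-fold above primary 1 and below primary 5 in both liver metastases, a pattern of 65 of all genes (0.507%). Epcam and the desmosome plaque gene Pkp3 were the 2 members at least 2-fold lower in all 4 pairs. Pkp3 was at 53.3 and 90 against 0 and 9.78 RPKM (-4.42 ± 1.55; adjusted p = 0.57), and Epcam differed by -3.41 ± 1.19 (adjusted p = 0.567).

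Ductal and gastric-type genes, which mark the better differentiated pancreatic tumours, had no common direction across the 4 pairs. In the fit of liver metastases against primaries, 14 of 14 tested gastric-type genes (median -1.91) and 7 of 9 ductal genes were negative, and none passed limma. Spp1, osteopontin, was at 3655 and 3537 RPKM in primaries 1 and 5 and at 6898 and 158 RPKM in liver metastases 1 and 5, the mucin gene Muc1 was at 9.3 and 635 against 14.7 and 11.5 RPKM, and the ductal factor gene Sox9 was at 2.44 and 77.6 against 1.08 and 2.11 RPKM. Gkn1, a gastric mucosal protein, was listed at 0 in primary 1 and was at 1859 RPKM in primary 5, and it was at 0 and 8.53 RPKM in the liver metastases. Tff2, a trefoil peptide, was at 27.2 and 1560.5 against 47.5 and 19.6 RPKM, and Ctse, a gastric protease, was at 102 and 1441 against 189 and 35.8 RPKM. All 14 tested gastric-type genes were at least 2-fold higher in primary 5 than in primary 1. Their medians in the 4 pairs were 0.83, -3.72, 0.50 and -4.77, and none was past 2-fold in all 4 pairs. Genes of the basement membrane and its integrins had medians of 0.57, -2.35, -0.19 and -3.70.

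Lower values in both liver metastases were found for genes of several kinds, and 0 of the 15 with the largest gap passed limma. Prss2, a trypsinogen of pancreatic acinar cells, was at 13.6 and 95 RPKM in primaries 1 and 5 and at 0 and 0.506 RPKM in liver metastases 1 and 5 (-4.93 ± 1.00; adjusted p = 0.167). Most other acinar genes were low in all 4 libraries or high in primary 5, with Ctrb1 at 0.958 and 47.7 RPKM in primaries 1 and 5 and listed at 0 in both liver metastases. Cela1 overlapped, at 7.94 and 42.7 against 31.6 and 7.8 RPKM. Clps was at 5.95 and 0 RPKM in primaries 1 and 5 and listed at 0 in both liver metastases. The islet hormone gene Ins2 was at 217 and 0 against 0 and 0.0339 RPKM. The highest acinar values of the 4 libraries were in primary 5 and the highest islet values in primary 1, and the part of normal pancreatic cells in the lower values was not tested.

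Ly6d, a surface protein of squamous and B-lineage cells, was abundant in all 4 of these PDAC libraries and lower in both liver metastases, at 2255 and 980.5 RPKM in primaries 1 and 5 and at 238 and 127 RPKM in liver metastases 1 and 5 (-3.09 ± 0.81; adjusted p = 0.341). Bmyc, a relative of Myc, was at 97 and 281 against 17.2 and 16.3 RPKM (-3.23 ± 0.88; adjusted p = 0.372). Myc itself was at 118 and 136 against 32.4 and 45.9 RPKM (-1.69 ± 1.09; adjusted p = 0.871). For these 3 genes all libraries had values well above 0 and the groups did not overlap. Mapk12, a p38 kinase, was at 35.5 and 23 against 0 and 1.64 RPKM (-4.19 ± 1.35; adjusted p = 0.52), and Sncg, gamma-synuclein, was at 4.84 and 80.3 against 0 and 0.323 RPKM (-4.24 ± 1.35; adjusted p = 0.52). Keratin 17 of basal cells was low in the liver metastases, Krt17 at 2.59 and 49.3 against 0.0734 and 0 RPKM. Wdr55, Tmem163, Cxxc5, Pcsk4, Cyp21a1 and Alg9 were listed at 0 in liver metastasis 1 and were at 0.0257 to 6.86 RPKM in liver metastasis 5, against 3.13 to 64.1 RPKM in the primaries. Abhd6, Prps1l3 and Dyrk2 were at 2.37 and 3.39, 7.64 and 6.79 and 0.298 and 1.96 RPKM in the liver metastases and at 19.6 and 37.9, 32.9 and 33.3 and 9.98 and 13.4 RPKM in the primaries.

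Among the other genes of the tumour pathway, Smad4, the common mediator of TGF-beta signalling that is often lost in pancreatic cancer, was at 5.27 and 2.23 RPKM in primaries 1 and 5 and at 24.6 and 36.7 RPKM in liver metastases 1 and 5 (2.79 ± 1.04; adjusted p = 0.618), higher in both liver metastases. Cdkn2a was at 7.86 and 19 against 19.5 and 0.141 RPKM, low only in liver metastasis 5. Feedback and other output genes of the MAPK pathway, a growth signal active in this cancer, were past 2-fold in all 4 pairs in 0 of 14 tested members. Dusp6 was at 7.56 and 9.25 against 11 and 20.8 RPKM, not overlapping, and Phlda1 was at 52 and 182 against 81.3 and 62 RPKM. No p53 target of 12 tested was separated by 2-fold, with Cdkn1a at 122 and 218 against 195 and 206 RPKM and Mdm2 at 12 and 28.2 against 2.42 and 19.9 RPKM. Of the mesenchymal genes, Snai1, a repressor of E-cadherin, was the only one of 10 past 2-fold in all 4 pairs, at 0.446 and 0 against 6.57 and 65.6 RPKM. Vim, vimentin, was at 173 and 219 against 467 and 318 RPKM, and Zeb2 was at 1.32 and 0.0114 against 0.715 and 3.08 RPKM.

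A part of the cell cycle genes had higher values in both liver metastases. Of 30 proliferation genes 13 were past 2-fold higher in all 4 pairs (43.3%, beside 4.47% of all genes tested) and 0 lower. The medians were 1.08, 2.37, 1.59 and 2.75. Ube2c and Ccnb2, which drive and time mitosis, were the highest, Ube2c at 37.7 and 11.8 RPKM in primaries 1 and 5 and at 161 and 115 RPKM in liver metastases 1 and 5 (2.62 ± 0.80; adjusted p = 0.484) and Ccnb2 at 44.7 and 0.145 against 125 and 94.9 RPKM. Cdc20, the activator of the anaphase complex, was at 12 and 0.0342 against 60.4 and 59.6 RPKM (4.06 ± 1.12; adjusted p = 0.395), and Birc5, survivin, was at 7.04 and 0 against 38.7 and 41.9 RPKM. Mki67, the source of the Ki-67 stain, was at 0.865 and 0 against 3.11 and 4.78 RPKM, and Top2a was at 0.283 and 0.00352 against 2.78 and 6.04 RPKM. The replication gene Pcna was not separated, at 22.4 and 23.3 against 9.45 and 26.3 RPKM. The 2 liver libraries also hold the higher shares of neutrophil, macrophage and red cell genes given above, and the part of those cells in the cell cycle values was not tested.

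Immediate early genes, which cells switch on within minutes of a stimulus or of tissue dissociation, had 3 of 16 tested members past 2-fold in all 4 pairs. This is 18.8%, beside 4.47% of all genes tested. Nr4a1, a nuclear receptor, was at 89.9 and 48.8 RPKM in primaries 1 and 5 and at 399.9 and 411 RPKM in liver metastases 1 and 5 (2.60 ± 0.63; adjusted p = 0.322), the phosphatase gene Dusp1 was at 807 and 368 against 2339 and 4263 RPKM (2.53 ± 0.69; adjusted p = 0.372), and Atf3 was at 62.2 and 82.1 against 231 and 175 RPKM. Fos was at 493 and 713 against 733 and 2945 RPKM and Junb was at 2033 and 867 against 3045 and 7151 RPKM, above both primaries but by less than 2-fold in at least 1 pair. Jun overlapped, at 375 and 295 against 285 and 1103 RPKM. Id3, an inhibitor of differentiation factors, was past 2-fold, at 73.3 and 0.125 against 429.8 and 188 RPKM.

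Few metabolic and housekeeping genes were past 2-fold in all 4 pairs. Of 35 ribosomal protein genes 0 were past 2-fold, with medians of 0.37, 0.40, -0.87 and -0.95: by these medians liver metastasis 5 was below both primaries and liver metastasis 1 above both. Of 30 genes of oxidative phosphorylation 0 were past 2-fold, with medians of 0.73, 0.30, -0.37 and -0.52. The signs of both fitted medians changed with the scaling. The cytochrome oxidase gene Cox4i1 was at 993 and 1455 RPKM in primaries 1 and 5 and at 2225 and 975 RPKM in liver metastases 1 and 5. Of 23 glycolysis and hypoxia genes 1 was past 2-fold (4.35%, near the 4.47% of all genes tested). It was the lactate exporter gene Slc16a3, at 5.7 and 0.012 against 22.3 and 62.5 RPKM. Collagens stayed low, with Col1a1 at 0.868 and 10.4 against 3.65 and 1.22 RPKM and Col3a1 listed at 0 in primaries 1 and 5 but at 7.18 and 1.88 RPKM in liver metastases 1 and 5. Of 20 genes most cells use, 0 were past 2-fold.

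Antioxidant and iron genes had some members past 2-fold. Of 12 iron handling genes 3 were past 2-fold in all 4 pairs (25%, beside 4.47% of all genes tested). They include Hpx and Slc40a1, which were already counted above in the plasma protein and Kupffer cell lists. Of 19 genes of the NRF2 response and glutathione 5 were past 2-fold in all 4 pairs (26.3%). Gpx1, a glutathione peroxidase abundant in red and myeloid cells, was at 1753 and 1369 RPKM in primaries 1 and 5 and at 5489.5 and 9856 RPKM in liver metastases 1 and 5 (2.25 ± 0.49; adjusted p = 0.233). Gclm, a subunit of the enzyme that starts glutathione synthesis, was at 22.3 and 0.023 against 78.3 and 101 RPKM, and Slc7a11, which imports cystine, was at 1.92 and 1.24 against 6.57 and 58.7 RPKM (3.06 ± 1.17; adjusted p = 0.636). Srxn1 was listed at 0 in primaries 1 and 5 but at 26.7 and 5.13 RPKM in liver metastases 1 and 5, and Gstt1 was at 3.17 and 0 against 11.1 and 8.31 RPKM. Nqo1, a classical NRF2 target, was higher by less than 2-fold in 1 pair, at 5.95 and 0 against 27.1 and 11.2 RPKM, and the catalytic partner Gclc overlapped, at 4.95 and 12.2 against 0 and 6.76 RPKM.

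Finally, the step from primary to liver metastasis in PDAC was compared with the step from primary to lung metastasis in the BC model, with 2 libraries in each group. Limma gave 0 genes for this difference at an adjusted p under 0.05 (0% of 12832; 530 at an unadjusted p under 0.05, 429 positive and 101 negative), and 30 without primary 1. With predicted loci passed over, the 3 smallest p-values with a positive difference belonged to Apoa2 (8.84 ± 1.38), Apoc3 and Fetub. Those with a negative difference belonged to Sncg (-9.08 ± 1.91), Ly6a (-5.54 ± 1.39) and Ly6e (-3.37 ± 0.91). Ly6a, a stem cell antigen also induced by interferon, was at 354 and 512 RPKM in primaries 1 and 5 and at 478 and 37.4 RPKM in liver metastases 1 and 5, and Ly6e was at 1629 and 537 against 599 and 358 RPKM. The steps most unlike between the models by p therefore included 3 liver genes on one side and 2 members of the Ly6 family on the other; the lowest adjusted p was 0.813. The models differ in organ of spread, tumour type and sort label, which cannot be told apart.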

How the data were processed

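RNA of sorted cells was copied with SMART-seq v4, a kit for very low input, and tagged with Nextera XT, per the labels' protocols; this chemistry does not mark strand. The genome was mm9 (from the submitters' processing notes). No aligner or counting program is given in the sources used here. The authors deposited 1 table of 23799 genes under the name CPM. Low values were whole multiples (within 0.02) of 1 step per library after multiplication by gene length for 62.6 to 74.4%, and without it for 2.3 to 4.4%, so the deposited values were read as RPKM. Lengths came from GENCODE on GRCm38 and matched 93% of genes. Reads shared between near-identical copies (globin, immunoglobulin, Saa, Ly6, trypsinogen and H2 genes) and between overlapping genes cannot be assigned with certainty.

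All 9 libraries entered 1 fit with limma 3.58.1 (R 4.3.3, statmod 1.5.0), 1 mean per group, on log2(RPKM + 1), with trend and robust moderation, for genes that reached 1 RPKM in 2 or more libraries. All tests are two-sided. P-values were adjusted over all genes after Benjamini and Hochberg, with a threshold of 0.05, and measure only how these libraries spread. Differences on this scale understate the change of genes with low values. The 4 library pairs, the counts past 1 log2 unit (2-fold) and the list medians are descriptions without a test. The code was tested on simulated data.

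PDAC libraries of the same number share age and genotype labels, and the submitters call the metastases matched, so numbers were taken to pair by mouse; deviations from the group means correlated at -0.165 over 12832 genes, so the values do not show it. The fit with the number as a block was an alternative, as were other pseudocounts, filters, scalings and left-out libraries. Libraries were grouped by their labels.

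The libraries compared and the 46 gene lists (764 genes, 745 in the table, 5 of them by synonym) were chosen with earlier results of these data known. Genes were named by a rule: per direction the 15 with the largest gap between groups whose higher group averaged at least 5 RPKM, every limma call, the 3 smallest p per direction of the contrast between models, and the 3 highest and first 2 members of a list. Predicted loci (such as symbols of Gm with digits or ending in Rik) were passed over for the largest gaps and the smallest p. Other list members, including most of those past 2-fold in all 4 pairs, were named after their values were seen. Promoter windows are from RefSeq. Some list members and 1 labelled allele are not reported here.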

Additional observations from a re-analysis of the deposited data

Results flagged for a closer look

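Sncg, the gene of gamma-synuclein, a small neuronal and epithelial protein, was lower in both PDAC liver metastases than in both PDAC primaries and higher in both BC lung metastases than in both BC primaries. It was at 4.84 and 80.3 against 0 and 0.323 RPKM in PDAC, and at 0.924 and 1.99 RPKM in BC primaries 1 and 5 against 112 and 40.7 RPKM in BC lung metastases 6 and 4. In the 8 libraries of these 2 steps, every metastasis of one model therefore differed from its primaries in the opposite direction to every metastasis of the other. The difference of the 2 steps was -9.08 ± 1.91 log2 units (SE), and limma, which tested it among all 12832 genes, gave an adjusted p of 0.813. The single PDAC lung metastasis had 36 RPKM.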

How the results depend on the processing

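The count of 1 gene past limma for liver against primary was 0 with a pseudocount of 0.1, without a filter on low values, rescaled without haemoglobin, with the replicate block (mouse number) and without robust moderation. It was 2 with a pseudocount of 5 and 12 with quantile normalization. Leaving out 1 library at a time gave 0 to 1032 genes, the highest without primary 1; without either liver metastasis Apoa2 is removed by the filter and was not tested. An alternative chosen after seeing the data, without the 3 libraries with the fewest genes, gave 0. For the difference from the BC model, leaving out 1 library gave 0 to 30 genes, and the replicate block changed no other call. The 573 genes higher in all 4 pairs were 276 with a pseudocount of 5 and 174 at 4-fold, and 794 to 3248 when 1 of the 4 libraries was left out. The 178 lower genes were 322 with a pseudocount of 0.1, 65 with a pseudocount of 5, 15 at 4-fold, 399 rescaled without haemoglobin, and 745 to 1865 with 1 library left out. A pair count with fewer libraries asks for fewer differences, which raises it by construction; for the other settings the cause was not tested. Among the single genes, Ly6a had a log2 difference of 0.17 in place of -1.66 without liver metastasis 5, and of -3.48 without liver metastasis 1. Values under 1 RPKM are limited by depth: the libraries hold an estimated 28100000 to 65300000 gene reads and 10410 to 18717 detected genes. Genes listed at 0 in primary 5 or liver metastasis 1, the 2 with the fewest detected genes of the 4, limit how far a low value can be read.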

Other observations

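The PDAC lung metastasis of the mouse numbered 1, which enters no comparison above, gives values for the same gene groups in a second organ. With 1 library there is no replicate and no test. Most hepatocyte genes that were high in both liver metastases were near 0 there: Apoa2 was at 0.875 RPKM, Alb was listed at 0, and 4 of the 24 tested plasma protein genes were above 1 RPKM, Trf at 27.5, Fga at 7.31, Rbp4 at 64.8 and Hp at 2479 RPKM. Others were not low. Apoc1 was at 97.1 RPKM, between the liver metastases (328 and 56.5 RPKM), Gnmt at 48.8 RPKM (50.6 and 16.7 RPKM) and Orm1 at 29.3 RPKM (109 and 191 RPKM). Genes of Kupffer cells and of liver sinusoidal endothelium were also present in the lung library. Clec4f, which marks mouse Kupffer cells, was at 54.8 RPKM, above liver metastasis 5 (7.25 RPKM) and below liver metastasis 1 (597 RPKM). Clec4g was at 22.6 RPKM and Gpr182 at 32 RPKM, against 96.2 and 3.17 RPKM and 19.7 and 0.716 RPKM in the liver metastases. Cd5l and Folr2, of the same Kupffer list, were at 0 and 0.0741 RPKM in the lung library. The cause of these values was not tested.

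Of the genes with the largest gaps, predicted loci passed over, 2 of the 15 higher ones belonged to no liver list. Il18bp, a secreted inhibitor of interleukin 18, was listed at 0 in PDAC primaries 1 and 5 and was at 153 and 46.5 RPKM in the liver metastases (limma adjusted p = 0.0591), and Scrg1 was likewise listed at 0 there and was at 24.4 and 157 RPKM in the liver metastases (adjusted p = 0.101). In the lung library Scrg1 was at 34.6 RPKM and Il18bp at 0.0559 RPKM. Of the 573 genes at least 2-fold higher in all 4 pairs, 129 were in a list used here and 444 were in none.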
